A study of Mus musculus with 38 samples.

Results

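The matrix metalloproteinases Mmp2, Mmp14 and Mmp15, the tissue inhibitors of metalloproteinases Timp1, Timp2, Timp3 and Timp4, and the ADAMTS proteinases Adamts1, Adamts2 and Adamts5 were followed by name in left ventricle RNA, as 10 of the 29564 genes in the count and TPM tables. All 10 passed the filter on low counts that 13765 genes passed. RNA came from 38 hearts of C57BL6 wild-type mice, with 1 library per mouse. The non_failing group (n = 8) and the HFpEF+Veh group (n = 8) received vehicle. The HFpEF+TYA-018 group (n = 11) received TYA-018, an inhibitor of the deacetylase HDAC6, and the HFpEF+SGLT2i group (n = 11) received empagliflozin, an inhibitor of the renal glucose transporter SGLT2. HFpEF is heart failure with preserved ejection fraction. Per the study's methods it was brought about in all 3 HFpEF groups by a high-fat diet together with L-NAME, a blocker of nitric oxide synthases. The labels give no age and mark every mouse as female, whereas the methods describe males. TPM, transcripts per 1000000 transcripts, is corrected for gene length and is used wherever levels of different genes are compared.

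Matrix metalloproteinases are zinc enzymes that cut collagens and other matrix proteins, and most are made as inactive precursors. TIMPs bind the active site of these enzymes and block it, and TIMP-2 also takes part in the activation of MMP-2 by membrane-bound MMP-14. ADAMTS enzymes are secreted relatives that process procollagen or cut proteoglycans such as versican and aggrecan. In the heart, fibroblasts are a main source of MMP-2 and TIMP-1, and the balance of enzymes and inhibitors is studied as part of fibrosis.

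On the GRCm38 assembly (GENCODE M21, protein-coding genes) Mmp2 lies at chr8:92827291-92853420, Mmp15 on the same chromosome at chr8:95352268-95375080 and Mmp14 at chr14:54431612-54445364. Timp2 lies at chr11:118301069-118355740 and Adamts2 on the same chromosome at chr11:50602084-50807573. Adamts1 at chr16:85793827-85803113 and Adamts5 at chr16:85856173-85901828 stand on the same strand, 53059 bases apart. The other TIMP genes each lie inside a synapsin gene and on its opposite strand. These are Timp1 at chrX:20870166-20874735 in Syn1, Timp3 at chr10:86300372-86349506 in Syn3 and Timp4 at chr6:115241892-115252205 in Syn2. Exons overlapped in 1 pair for Timp3 with Syn3 and in 2 pairs for Timp4 with Syn2, and in none for Timp1. The study's methods name a stranded mRNA kit for the libraries. Whether the counting used the strand is not given in the sources used here. The synapsin genes were low in all 38 libraries, at 0.0366 to 0.182 TPM for Syn1, 0.124 to 0.612 TPM for Syn2 and 0.186 to 1.30 TPM for Syn3.

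The sequences just before the start of transcription are shown for the genes that were called in a comparison or came nearest to a call and that have a RefSeq promoter window, and for Timp4 as the TIMP without a match. RefSeq windows (GRCm38.p6) were held for 8 of the 10 genes, not for Mmp2 and Adamts5. The 250 bases before the start were searched on both strands for 4 motifs, a GC box, a TATA box, an AP-1 site and the cAMP response element, whose letters are given with their counts below the sequences. Up to 150 of those bases are printed, 5′ to 3′ on the strand of the gene, with matches in capitals. The Mmp15 stretch stops earlier because GENCODE starts that gene 28 bases upstream of RefSeq.
Timp1 (chrX:20870016-20870165, plus strand): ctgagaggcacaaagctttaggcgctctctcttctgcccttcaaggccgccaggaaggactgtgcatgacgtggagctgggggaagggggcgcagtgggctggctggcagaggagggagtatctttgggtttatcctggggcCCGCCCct
Timp4 (chr6:115252206-115252355, minus strand): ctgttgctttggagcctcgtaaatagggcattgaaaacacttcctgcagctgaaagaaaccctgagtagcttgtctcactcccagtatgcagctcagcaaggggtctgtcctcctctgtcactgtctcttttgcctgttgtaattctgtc
Mmp15 (chr8:95352146-95352267, plus strand): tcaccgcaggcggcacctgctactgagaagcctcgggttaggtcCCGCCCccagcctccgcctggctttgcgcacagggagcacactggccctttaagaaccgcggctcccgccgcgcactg
Adamts1 (chr16:85803114-85803263, minus strand): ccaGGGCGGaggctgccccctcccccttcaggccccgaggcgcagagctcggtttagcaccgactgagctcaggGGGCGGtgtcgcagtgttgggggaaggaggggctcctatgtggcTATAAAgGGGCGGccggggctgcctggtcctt
The GC box, searched as GGGCGG, was found in 7 of the 8 windows (Mmp14, Mmp15, Timp1, Timp2, Timp3, Adamts1 and Adamts2) and in 32.7% of all 32851 windows. The Timp1 match opens 8 bases before the start. Adamts1 held 3 GC boxes and the TATA box, searched as TATAAA, which opens 32 bases before its start, a motif present in 12.4% of all windows and in no other window of these genes. The AP-1 site, searched as TGACTCA, was in none of the 8 windows and in 4.46% of all windows. The cAMP response element, searched as TGACGTCA, was also in none of the 8 and in 1.55% of all windows. These matches are letters in a window, not measured binding.

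Libraries held from 21.5 M to 59.3 M counts (M is 1000000). Hepatocyte RNA stood out in HFpEF+Veh V2523, with 1045 CPM (counts scaled to a library of 1000000) for albumin against at most 20.8 in the other HFpEF+Veh hearts. In non_failing hearts albumin ran from 13.3 to 235 CPM, and in the drug groups it was at most 7.42 CPM. HFpEF+Veh V2530 had the highest Timp1 and the highest fibroblast, activated fibroblast and macrophage marker sums of its group. Differences of the 10 genes that involve HFpEF+Veh are given for all 8 libraries and also without V2523 and V2530, for some genes with empagliflozin only by their lowest adjusted p. HFpEF+SGLT2i V2571 stood apart from its group in neutrophil markers, with 156 CPM against a median of 14.0, and in endothelial markers, with 1542 against 825 CPM. In RNA from whole tissue, fewer cells of a type and less RNA per cell cannot be told apart.

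Timp3 was the most abundant of the 10 transcripts in each of the 38 libraries. In non_failing hearts the order of mean levels was Timp3 at 68.1 ± 29.2 TPM (SD, n = 8), Adamts1 at 20.8, Timp2 at 19.7, Timp4 at 13.5, Mmp15 at 13.0, Mmp2 at 11.4, Mmp14 at 3.44, Adamts5 at 3.18, Adamts2 at 1.97 and Timp1 at 1.36 TPM. Neighbours were not separated everywhere. Adamts1 exceeded Timp2, Timp4 exceeded Mmp15 and Mmp15 exceeded Mmp2 in only 4 of 8 non_failing libraries each, and Mmp14 exceeded Adamts5 in 6 of 8. Timp3 exceeded Adamts1, Timp2 exceeded Timp4, Mmp2 exceeded Mmp14 and Adamts5 exceeded Adamts2 in 8 of 8. In HFpEF+Veh hearts Mmp2 stood 4th and Timp1 9th, with Adamts2 last. Mmp2 was also 4th and Timp1 9th in both drug groups. Timp1, the least abundant in non_failing hearts, rested on only 19 to 149 counts per library, while Timp3 had 4511 to 24980.

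**Figure D1:**
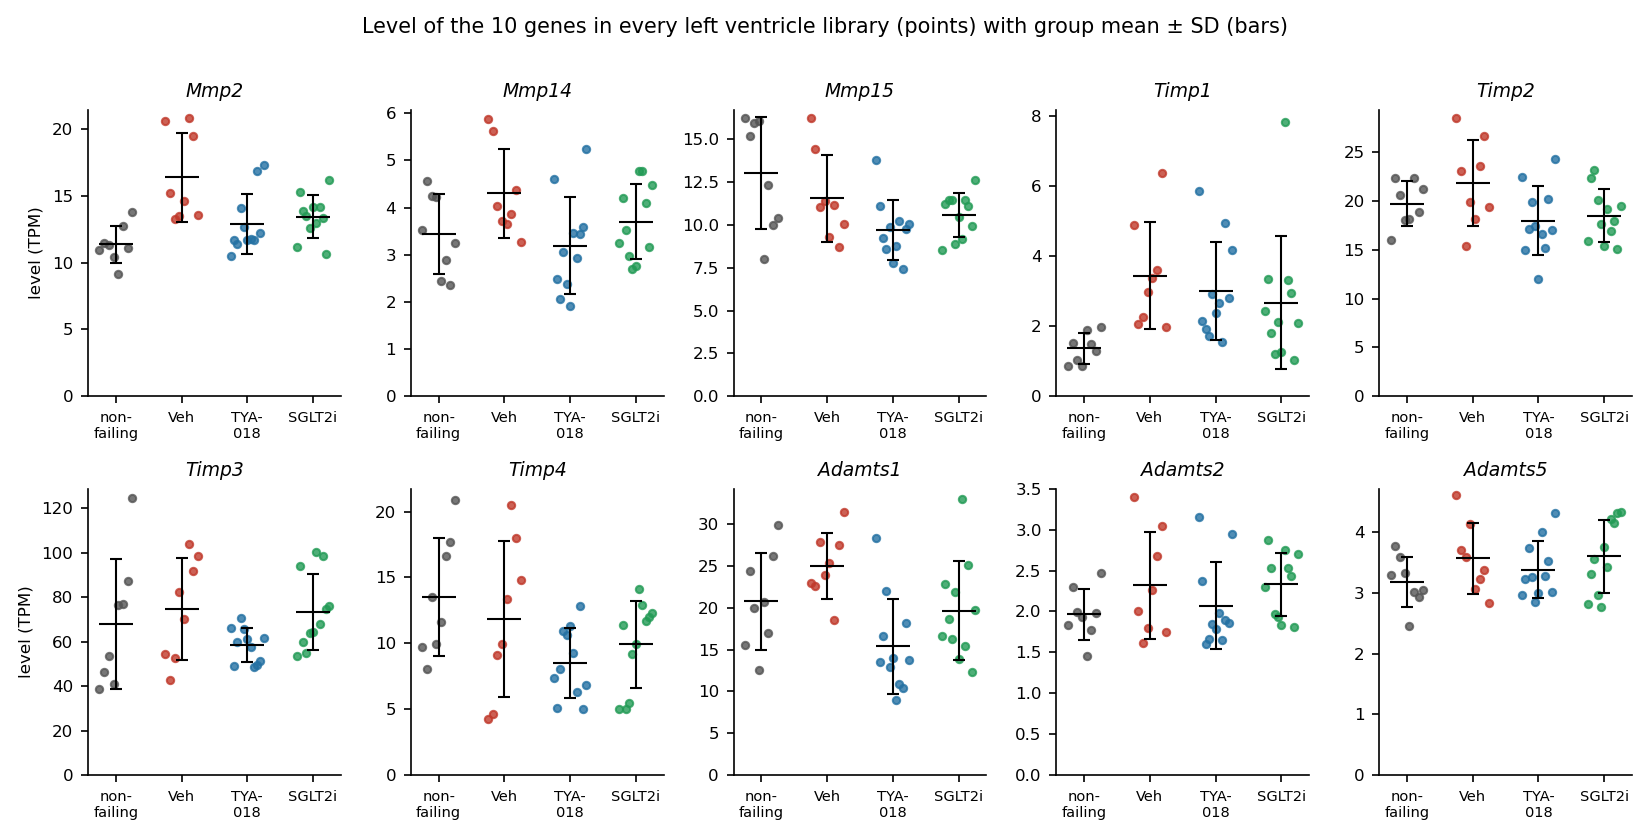
Level in TPM (y axis, linear from 0) of each of the 10 genes in the 38 libraries, with 1 point per library by group and black bars for the mean ± SD. Mmp2 in HFpEF+Veh (13.2 to 20.9 TPM) sits mostly above non_failing (9.15 to 13.8 TPM), and Timp1 is below 2 TPM in every non_failing library.

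Among the enzymes, Mmp2 encodes the gelatinase that also cleaves collagen fragments. It was the one of the 10 genes called higher in HFpEF+Veh against non_failing hearts, while Timp1 differed more and narrowly missed the threshold. The level of Mmp2 ran from 9.15 over a median of 11.2 to 13.8 TPM in non_failing hearts and from 13.2 over a median of 15.0 to 20.9 TPM in HFpEF+Veh hearts. Of the 8 HFpEF+Veh libraries, 5 lay above every non_failing library, and the ranges overlapped. The fitted difference was 0.43 (SE 0.10, 95% interval 0.23 to 0.62, adjusted p = 0.00718) on the log2 scale of scaled counts, or 1.34-fold, by the quasi-likelihood test of edgeR adjusted over all genes tested. It was the only one of the 10 genes called in this comparison, in which 433 of 13765 genes (3.15%) were called. At an unadjusted p under 0.05 there were 3 of the 10, against 15.9% of all genes. Without V2523 and V2530 the mean was 16.1 ± 3.65 TPM (SD, n = 6) and the log2 difference 0.41 with an adjusted p of 0.0226.

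The HFpEF+Veh hearts were not even in Mmp2. V2521, V2529 and V2530 held 19.5 to 20.9 TPM and the other 5 held 13.2 to 15.2. The same 3 libraries had the highest fibroblast marker sums of the group, 2138 to 2218 CPM over 8 markers (Pdgfra, Tcf21, Dcn, Col1a1, Dpt, Gsn, Lum and Ly6a), against 1121 to 1930 CPM in the others. Their part in the Mmp2 difference was not tested.

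Mmp2 levels in the treated groups lay between those of the 2 vehicle groups. They ran from 10.5 over a median of 11.8 to 17.3 TPM with TYA-018 and from 10.7 over a median of 13.5 to 16.2 TPM with empagliflozin. In TPM, 8 of 11 HFpEF+TYA-018 and 4 of 11 HFpEF+SGLT2i libraries lay below the lowest HFpEF+Veh library, while V2555 and V2570 of the TYA-018 group reached 16.9 and 17.3 TPM. Fewer did so on the scaled counts used by the test, where the lowest HFpEF+Veh library was V2527 at 34.5 CPM. Below it lay V2543, V2546, V2547, V2551 and V2552 with TYA-018 (28.9 to 34.2 CPM) and V2574 with empagliflozin (30.7 CPM). Neither difference from HFpEF+Veh passed the test. It was -0.25 (SE 0.09, 95% interval -0.43 to -0.07, adjusted p = 0.121) for TYA-018 and -0.19 (SE 0.09, 95% interval -0.37 to -0.01, adjusted p = 0.456) for empagliflozin. With 1 library left out the TYA-018 difference was not called, with adjusted p from 0.0531 without V2570 to 0.261 without V2530. Of 9 other settings, 1 called it (library size alone, adjusted p = 0.0172). Against non_failing the values were 0.18 ± 0.09 (SE, adjusted p = 0.240) for TYA-018 and 0.24 ± 0.09 (SE, adjusted p = 0.109) for empagliflozin.

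Mmp14, the membrane-anchored collagenase that activates pro-MMP-2, averaged 3.44 ± 0.844 TPM (SD, n = 8) in non_failing and 4.30 ± 0.948 TPM (SD, n = 8) in HFpEF+Veh hearts, with ranges that overlapped (2.37 to 4.56 and 3.28 to 5.88 TPM). The log2 difference was 0.20 ± 0.17 (SE, adjusted p = 0.592). With TYA-018 the mean was 3.19 ± 1.03 TPM (SD, n = 11), and 9 of 11 libraries lay below the HFpEF+Veh mean. That difference was -0.28 ± 0.15 (SE, adjusted p = 0.343), and the one for empagliflozin -0.09 ± 0.15 (SE, adjusted p = 0.877).

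Mmp15, a second membrane-type metalloproteinase, fell in HFpEF+TYA-018 hearts against non_failing hearts and was not called by edgeR in the other comparisons with all libraries. Non_failing libraries ran from 8.01 over a median of 13.7 to 16.3 TPM, in 4 high libraries (V2501 to V2504, 15.2 to 16.3 TPM) and 4 lower ones (V2507 to V2510, 8.01 to 12.3 TPM). HFpEF+TYA-018 libraries ran from 7.42 over a median of 9.76 to 13.8 TPM, with 10 of 11 below the non_failing mean and V2543 highest. The log2 difference was -0.38 ± 0.11 (SE, adjusted p = 0.0222), in a comparison that called 1017 of 13765 genes (7.39%) and 2 of the 10, with 4 of the 10 at an unadjusted p under 0.05 against 22% of all genes. Of 8 other settings, 7 called this difference and limma on log2(TPM + 1) gave an adjusted p of 0.05004. The call was lost without V2501 (log2 difference -0.32 with an adjusted p of 0.0533), V2503 (-0.34 with an adjusted p of 0.0594) or V2504 (-0.33 with an adjusted p of 0.0584), each of which is among the 4 high non_failing libraries. Hepatocyte markers moved with this difference. The sum of 12 markers was 261, 298 and 503 CPM in these 3 libraries, 52.3 to 141 CPM in the other 5 non_failing libraries (78.9 in V2502, the fourth with high Mmp15) and 11.4 to 36.3 CPM in HFpEF+TYA-018. Across the 38 libraries Mmp15 and the hepatocyte markers had r = 0.53, and 0.35 after group means were subtracted, as a description. The part of the hepatocyte RNA in the Mmp15 difference was not tested. For HFpEF+SGLT2i against non_failing the value was -0.30 ± 0.11 (SE, adjusted p = 0.0781), with all 11 libraries below the non_failing mean, and for HFpEF+Veh -0.27 ± 0.11 (SE, adjusted p = 0.231). DESeq2 called the HFpEF+SGLT2i difference (adjusted p = 0.0492), as did edgeR in 3 of 19 fits with 1 library left out. The difference of a drug group from HFpEF+Veh did not pass the test, with 95% intervals of -0.33 to 0.10 for TYA-018 and -0.25 to 0.18 for empagliflozin.

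Timp1, the soluble inhibitor often used as a marker of fibrosis, had the widest difference of the 10 genes. The 8 non_failing libraries ran from 0.847 over a median of 1.38 to 1.98 TPM and the 8 HFpEF+Veh libraries from 1.98 over a median of 3.17 to 6.37 TPM. The TPM ranges did not overlap, which held for 0.581% of all genes tested, but the highest non_failing library (V2510) and the lowest HFpEF+Veh library (V2532) differed only in the third decimal. On the scaled counts used by the test the ranges did overlap. There non_failing V2507 stood at 1.89 CPM, above HFpEF+Veh V2532, V2523 and V2526 at 1.38, 1.45 and 1.66 CPM. Fitted, Timp1 differed by 1.15 (SE 0.34, 95% interval 0.46 to 1.84, adjusted p = 0.0530), which missed the threshold. Without V2530 the log2 difference was 0.96 with an adjusted p of 0.149 and without V2523 1.23 with an adjusted p of 0.0321. It was past the threshold also without V2507, V2526 or V2532, and in 6 of 9 other settings, which include DESeq2 and both limma fits. Without both V2523 and V2530 it was 1.03 with an adjusted p of 0.116.

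In HFpEF+TYA-018 hearts Timp1 rose against non_failing. It ran from 1.53 over a median of 2.66 to 5.86 TPM, above the non_failing mean in 11 of 11 libraries and above every non_failing library in 8. The fitted difference was 1.17 (SE 0.32, 95% interval 0.51 to 1.82, adjusted p = 0.0199), or 2.24-fold, and it was past the threshold with each of the 19 libraries left out in turn (adjusted p 0.0134 to 0.0488). Of 8 other settings, 7 called it and limma on log2(TPM + 1) gave an adjusted p of 0.0511. HFpEF+TYA-018 and HFpEF+Veh hearts differed in Timp1 by 0.02 (SE 0.31, 95% interval -0.60 to 0.64, adjusted p = 0.984), an interval that holds both a decrease and an increase of over 0.6. In HFpEF+SGLT2i hearts Timp1 ran from 1.03 over a median of 2.13 to 7.83 TPM, with V2571 highest and the next library at 3.35 TPM. The difference from non_failing was 0.92 ± 0.32 (SE, adjusted p = 0.0799), and without V2571 it was 0.62 with an adjusted p of 0.214. Against HFpEF+Veh it was -0.23 ± 0.31 (SE, adjusted p = 0.849), and without V2571 -0.52 with an adjusted p of 0.398.

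The more abundant inhibitors did not differ by the test in any of the 6 comparisons. Timp2 averaged 19.7 ± 2.29 TPM (SD, n = 8) in non_failing and 21.8 ± 4.42 TPM (SD, n = 8) in HFpEF+Veh hearts. Its mean was 17.96 ± 3.54 TPM (SD, n = 11) with TYA-018 and 18.5 ± 2.71 TPM (SD, n = 11) with empagliflozin. Its log2 difference was 0.05 ± 0.11 (SE, adjusted p = 0.852) in HFpEF+Veh against non_failing, -0.17 ± 0.10 (SE, adjusted p = 0.371) with TYA-018 and -0.16 ± 0.10 (SE, adjusted p = 0.620) with empagliflozin. Timp3, which unlike the other TIMPs binds to the matrix, averaged 68.1 ± 29.2 TPM (SD, n = 8), 74.5 ± 22.95 TPM (SD, n = 8), 58.3 ± 7.69 TPM (SD, n = 11) and 73.4 ± 17.1 TPM (SD, n = 11) in the same order of groups. Its spread was uneven. The 11 HFpEF+TYA-018 libraries stayed between 48.7 and 70.4 TPM, all below the HFpEF+Veh mean and all below the HFpEF+SGLT2i mean, whereas non_failing libraries reached from 38.8 to 124 TPM. The log2 difference was -0.25 ± 0.18 (SE, adjusted p = 0.499) between HFpEF+TYA-018 and HFpEF+Veh and -0.30 ± 0.17 (SE, adjusted p = 0.459) between the drugs. It was 0.06 ± 0.20 (SE, adjusted p = 0.913) in HFpEF+Veh against non_failing and 0.05 ± 0.18 (SE, adjusted p = 0.952) with empagliflozin against HFpEF+Veh.

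Timp4, the inhibitor with the most heart-restricted expression, averaged 13.5 ± 4.51 TPM (SD, n = 8) in non_failing and 11.8 ± 5.91 TPM (SD, n = 8) in HFpEF+Veh hearts, against 8.50 ± 2.65 TPM (SD, n = 11) with TYA-018 and 9.91 ± 3.32 TPM (SD, n = 11) with empagliflozin. The HFpEF+Veh libraries ran from 4.22 over a median of 11.6 to 20.5 TPM, with V2521 and V2523 below every non_failing library. HFpEF+TYA-018 differed from non_failing by -0.60 ± 0.26 (SE, adjusted p = 0.148), with 11 of 11 libraries below the non_failing mean and 6 below every non_failing library. The value for HFpEF+SGLT2i was -0.45 ± 0.26 (SE, adjusted p = 0.339) and for HFpEF+Veh -0.25 ± 0.28 (SE, adjusted p = 0.709), which ran from -0.39 without V2529 to -0.12 without V2521. Against HFpEF+Veh TYA-018 gave -0.35 ± 0.26 (SE, adjusted p = 0.491) and empagliflozin -0.20 ± 0.26 (SE, adjusted p = 0.843). With 1 library left out these ran from -0.49 to -0.21 and from -0.33 to -0.056.

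Adamts1, an inducible proteinase that cuts versican and aggrecan, came nearest to a call for a drug against HFpEF+Veh. HFpEF+Veh libraries ran from 18.5 over a median of 24.6 to 31.5 TPM and HFpEF+TYA-018 libraries from 8.99 over a median of 13.7 to 28.3 TPM. Of the 11 HFpEF+TYA-018 libraries 9 lay below every HFpEF+Veh library in TPM, and V2543 (28.3 TPM) and V2548 (22.1 TPM) were the exceptions. On the scaled counts used by the test, V2547 (74.7 CPM) and V2559 (85.6 CPM) also lay above the lowest HFpEF+Veh library (V2529, 73.9 CPM). The difference was -0.61 (SE 0.18, 95% interval -0.97 to -0.25, adjusted p = 0.0601), short of the threshold. It was called with library size alone, with DESeq2 and with no filter on low counts, settings that called 1096, 402 and 618 genes of all against 266, and also without V2543 (log2 difference -0.71 with an adjusted p of 0.0226), V2548 (-0.67 with an adjusted p of 0.0483), V2521 (-0.65 with an adjusted p of 0.0499) or V2529 (-0.67 with an adjusted p of 0.0499). Without V2523 and V2530 it was -0.62 with an adjusted p of 0.132. With empagliflozin Adamts1 ran from 12.3 over a median of 18.7 to 33.1 TPM, again with V2571 highest, and differed from HFpEF+Veh by -0.32 ± 0.18 (SE, adjusted p = 0.572). Against non_failing the values were 0.21 ± 0.19 (SE, adjusted p = 0.637) for HFpEF+Veh, -0.40 ± 0.18 (SE, adjusted p = 0.174) for HFpEF+TYA-018 and -0.10 ± 0.18 (SE, adjusted p = 0.805) for HFpEF+SGLT2i, the last from -0.20 without V2571 to -0.027 without V2510.

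Adamts2, the procollagen N-proteinase, averaged 1.97 ± 0.312 TPM (SD, n = 8) in non_failing and 2.32 ± 0.657 TPM (SD, n = 8) in HFpEF+Veh hearts and differed by 0.26 ± 0.14 (SE, adjusted p = 0.375). HFpEF+SGLT2i differed from non_failing by 0.28 ± 0.13 (SE, adjusted p = 0.217). Against HFpEF+Veh the values were -0.08 ± 0.13 (SE, adjusted p = 0.795) with TYA-018 and 0.03 ± 0.13 (SE, adjusted p = 0.968) with empagliflozin. Adamts5, an aggrecanase, had group means from 3.18 TPM in non_failing to 3.60 TPM in HFpEF+SGLT2i hearts. Its log2 differences were 0.11 in HFpEF+Veh, 0.17 in HFpEF+TYA-018 and 0.15 in HFpEF+SGLT2i hearts against non_failing, with adjusted p from 0.330 to 0.664. Against HFpEF+Veh they were 0.06 ± 0.10 (SE, adjusted p = 0.797) with TYA-018 and 0.04 ± 0.10 (SE, adjusted p = 0.918) with empagliflozin.

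Without V2523 and V2530, 6 HFpEF+Veh libraries remained. The mean of Mmp14 was then 4.07 ± 0.920 TPM (SD, n = 6), that of Mmp15 11.6 ± 2.43 TPM (SD, n = 6), that of Timp2 20.8 ± 4.61 TPM (SD, n = 6), that of Timp3 76.9 ± 21.7 TPM (SD, n = 6) and that of Timp4 12.0 ± 5.56 TPM (SD, n = 6). Adamts1 averaged 25.02 ± 4.40 TPM (SD, n = 6), Adamts2 2.25 ± 0.690 TPM (SD, n = 6) and Adamts5 3.58 ± 0.678 TPM (SD, n = 6). Mmp2 was the one gene of the 10 called in HFpEF+Veh against non_failing, as with all 8 libraries. The log2 difference of the others there was 0.12 (adjusted p = 0.786) for Mmp14, -0.26 (adjusted p = 0.293) for Mmp15, -0.007 (adjusted p = 0.985) for Timp2, 0.11 (adjusted p = 0.832) for Timp3, -0.23 (adjusted p = 0.746) for Timp4, 0.22 (adjusted p = 0.661) for Adamts1, 0.22 (adjusted p = 0.514) for Adamts2 and 0.11 (adjusted p = 0.680) for Adamts5 by edgeR. For TYA-018 against these 6 libraries it was -0.23 (adjusted p = 0.242) for Mmp2, -0.20 (adjusted p = 0.591) for Mmp14, -0.12 (adjusted p = 0.648) for Mmp15, 0.14 (adjusted p = 0.875) for Timp1, -0.11 (adjusted p = 0.660) for Timp2, -0.30 (adjusted p = 0.455) for Timp3 and -0.38 (adjusted p = 0.502) for Timp4. Adamts2 gave -0.038 (adjusted p = 0.919) and Adamts5 0.052 (adjusted p = 0.853) in that comparison. For empagliflozin the largest differences were -0.32 (adjusted p = 0.791) for Adamts1 and -0.22 (adjusted p = 0.896) for Timp4, Mmp2 was at -0.17 (adjusted p = 0.772), and the adjusted p of the 10 genes was at least 0.772.

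**Figure D2:**
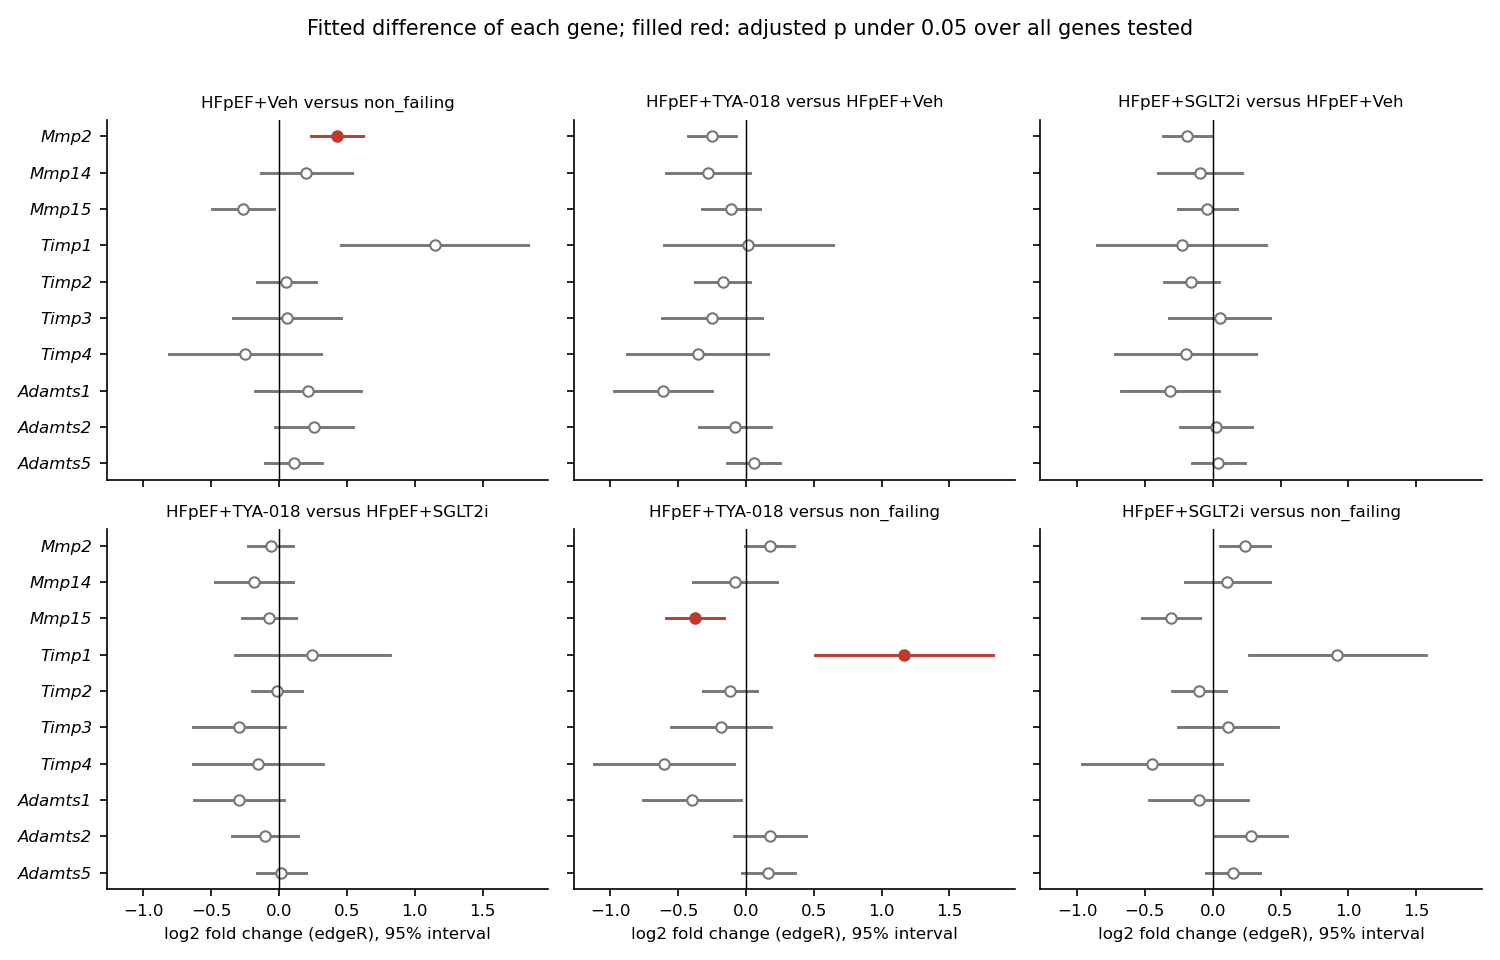
Fitted log2 fold change of each gene (points) with its 95% interval (lines) in the 6 comparisons; filled red marks an adjusted p under 0.05 over all genes tested. Mmp2 in HFpEF+Veh and Mmp15 and Timp1 in HFpEF+TYA-018, each against non_failing, are the filled points.

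Against HFpEF+Veh, 0 of the 10 genes were called with either drug by edgeR. TYA-018 called 266 of 13765 genes (1.93%) and empagliflozin 117 (0.85%). At an unadjusted p under 0.05 there were 2 of the 10 (Mmp2 and Adamts1) with TYA-018, against 17.5% of all genes, and 1 (Mmp2) with empagliflozin, against 10%. DESeq2 called 1 of the 10 with TYA-018 (Adamts1), among 402 genes of all, and 0 with empagliflozin, among 115. Limma called 0 of the 10 with either drug, and of all genes 42 with TYA-018 and 0 with empagliflozin on log2(TPM + 1), or 24 and 0 on log2(TPM + 0.1). With V2523 and V2530 left out, 1 gene of all was called with TYA-018 and 0 with empagliflozin. The log2 difference was below 0 for 8 of the 10 with TYA-018, with a median of -0.21 against -0.01 over all genes tested, and for 7 of the 10 with empagliflozin, with a median of -0.12 against 0.01. With library size alone in place of TMM scaling, the median of all genes in the TYA-018 comparison moved to -0.14, and a decrease on that scale is to be read against this median. The disease comparison and the drug comparisons share the HFpEF+Veh libraries. HFpEF+SGLT2i against non_failing called 0 of the 10 among 888 genes (6.45%), with 4 at an unadjusted p under 0.05 against 19.6% of all genes, and DESeq2 called 2 (Mmp15 and Timp1) among 1129.

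The drugs were also compared with each other, with 10 genes tested and p adjusted over all 13765. None of the 10 was called or reached an unadjusted p of 0.05, and edgeR called 0 genes of all (0%), with 1821 at an unadjusted p under 0.05 (13.2%). DESeq2 called 185 genes of all and 0 of the 10, and limma called 0. The count over all genes was 17 without V2570, 9 without V2565, 1 without each of V2548, V2555 and V2559, and 5 with the effective length offset, with 0 of the 10 called in each of these. The widest differences of TYA-018 against empagliflozin were -0.30 (SE 0.17, 95% interval -0.64 to 0.04, adjusted p = 0.459) for Timp3 and -0.30 (SE 0.16, 95% interval -0.63 to 0.04, adjusted p = 0.452) for Adamts1. For Mmp2 the interval was -0.23 to 0.10 and for Timp1 -0.33 to 0.82, so the data leave room for a difference in Timp1 in either direction.

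**Figure D3:**
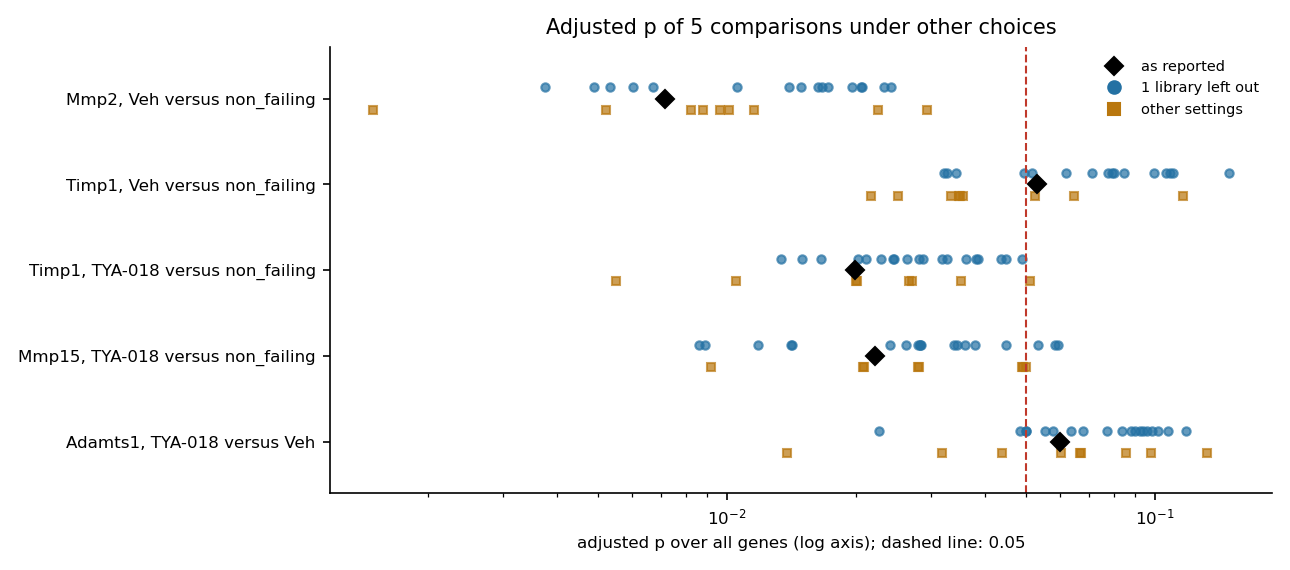
Adjusted p (x axis, log scale, dashed line at 0.05) of 5 comparisons as reported (black diamonds), with 1 library left out at a time (blue circles) and under the other settings (orange squares). Mmp2 in HFpEF+Veh stays left of the line throughout (0.0015 to 0.0293), while the other 4 rows hold points on both sides.

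The make-up of the inhibitor pool is given as a description. Timp1 made up 1.36 ± 0.320% (SD, n = 8) of the summed TPM of the 4 inhibitors in non_failing and 3.14 ± 1.21% (n = 8) in HFpEF+Veh hearts, 3.39 ± 1.35% (n = 11) with TYA-018 and 2.44 ± 1.24% (n = 11) with empagliflozin. Timp3 held 64.6% to 70.0% in the group means and Timp4 9.35% to 13.3%. Mmp2 made up 41.5 ± 6.55% (SD, n = 8) of the summed TPM of Mmp2, Mmp14 and Mmp15 in non_failing hearts, 50.8 ± 5.78% (n = 8) in HFpEF+Veh, 50.1 ± 6.21% (n = 11) with TYA-018 and 48.5 ± 2.12% (n = 11) with empagliflozin. The non_failing mean joins V2501 to V2504 at 33.9 to 36.8% and V2507 to V2510 at 45.6 to 50.3%, the latter near the means of the HFpEF groups. The sum of the 4 inhibitors over the sum of the 3 enzymes was 3.86 ± 1.64 in non_failing, 3.55 ± 1.09 in HFpEF+Veh, 3.42 ± 0.480 in HFpEF+TYA-018 and 3.78 ± 0.734 in HFpEF+SGLT2i hearts. The ranges of this ratio overlapped between all groups. In non_failing hearts it was 2.13 to 2.81 in V2501 to V2504 and 4.20 to 6.15 in V2507 to V2510.

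The wider family was read from 6 lists in HFpEF+Veh against non_failing, where 3.15% of all genes tested were called and 15.9% had an unadjusted p under 0.05. Of the other metalloproteinases, 11 of 20 were tested and 1 rose, Mmp28 (epilysin) at 0.59 ± 0.14 (SE, adjusted p = 0.0121). Mmp17, a metalloproteinase anchored to the membrane by a lipid, was at 0.28 ± 0.17 (SE, adjusted p = 0.428), and at -0.05 ± 0.16 (SE, adjusted p = 0.903) with TYA-018 and 0.19 ± 0.16 (SE, adjusted p = 0.722) with empagliflozin. Of the other ADAMTS proteinases 11 of 16 were tested and 0 called by edgeR, with 3 at an unadjusted p under 0.05. Among the 7 ADAMTS-like proteins, which lack the protease domain, 3 rose: Adamtsl2 at 0.95 ± 0.24 (SE, adjusted p = 0.0193), Papln at 0.66 ± 0.18 (SE, adjusted p = 0.0297) and Adamtsl5 at 0.49 ± 0.14 (SE, adjusted p = 0.0479). Of the 7 membrane ADAM proteinases 1 rose, Adam12 at 1.27 ± 0.26 (SE, adjusted p = 0.00296), from a level of 0.0921 to 0.256 TPM. Of 19 activators, other inhibitors and clearance genes 1 rose, the uptake receptor Lrp1 at 0.38 ± 0.09 (SE, adjusted p = 0.0129), and Plg, a gene made in the liver, was among the 18 others. Of 11 matrix substrates 2 rose, the small proteoglycans Lum at 0.86 ± 0.17 (SE, adjusted p = 0.00190) and Bgn at 0.62 ± 0.13 (SE, adjusted p = 0.00296). No gene of these lists was called lower. With V2530 left out, 1 in place of 3 of the ADAMTS-like proteins was called, and with V2523 left out 3 in place of 2 of the matrix substrates. Of all genes, 291 were called without V2530 and 620 without V2523, against 433 with all 8 libraries. With both left out, the 6 lists held 1, 0, 3, 1, 1 and 2 calls higher in the order given, the same numbers as with all 8 libraries, among 390 genes of all. The differences named for these lists are for all 8 libraries. Against HFpEF+Veh the only call in the 6 lists was Plg, lower with TYA-018 (log2 difference -6.83) and with empagliflozin (-6.15). It moved with the albumin of V2523, as did all 12 hepatocyte markers, each called lower in both comparisons. These comparisons called 1.93% and 0.85% of all genes, or 266 with TYA-018 and 117 with empagliflozin. Without V2523 the counts over all genes were 196 and 2, and without V2523 and V2530 they were 1 and 0.

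Markers of other cell types were summed per library beside these results, and their calls in HFpEF+Veh against non_failing stand beside the same 3.15% called and 15.9% at an unadjusted p under 0.05 over all genes. Fibroblast markers ran from 1095 to 1708 CPM in non_failing, 1121 to 2218 in HFpEF+Veh, 1019 to 2012 in HFpEF+TYA-018 and 1154 to 2004 CPM in HFpEF+SGLT2i hearts, and 2 of the 8 (Lum and Pdgfra) rose in HFpEF+Veh against non_failing. Activated fibroblast markers (Postn, Acta2, Cthrc1, Comp, Thbs4 and Tnc) ran from 74.9 to 151 CPM in non_failing and 129 to 298 CPM in HFpEF+Veh hearts, and 2 of the 5 tested (Postn and Comp) rose. In HFpEF+TYA-018 hearts, where Timp1 was called against non_failing, the sum ran from 115 to 281 CPM, with a median of 141 against 96.3 CPM, and 1 of the 5 (Acta2) rose, against 7.39% of all genes called. In HFpEF+SGLT2i hearts it ran from 113 to 202 CPM. In HFpEF+Veh without V2530 0 of the 5 were called by edgeR, with 2 at an unadjusted p under 0.05, and without V2523 and V2530 1 was called. Of all genes 291 and 390 were called in these fits. Macrophage markers ran from 125 to 231 CPM in non_failing, 164 to 300 in HFpEF+Veh, 143 to 350 in HFpEF+TYA-018 and 165 to 294 CPM in HFpEF+SGLT2i hearts. Against non_failing 0 of 5 were called by edgeR in HFpEF+Veh, with 1 at an unadjusted p under 0.05, and 0 of 5 in HFpEF+TYA-018, with 0 at an unadjusted p under 0.05. Erythrocyte markers (4 genes) ran from 1130 to 3414 CPM in non_failing, with a median of 1994, and from 1563 to 8373 CPM in HFpEF+TYA-018 hearts, with a median of 4281. In that comparison 1 of the 4 (Hbb-bs) was called higher and 4 of 4 had an unadjusted p under 0.05, against 22% of all genes, and Timp1 had r = 0.35 with this list over the 38 libraries, or 0.15 after group means were subtracted. In HFpEF+Veh the markers ran from 1723 to 13763 CPM, with V2529 highest and V2526 next at 9465 CPM. The labelled tissue was checked with 6 cardiomyocyte markers, which stood at 14607 to 28324 CPM in sum over the 38 libraries, while adipocyte markers stayed below 1 CPM in sum. The part of these cell types in the levels of the 10 genes was not tested.

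Across the 38 libraries, after subtracting group means, log2 CPM of Timp2 followed the fibroblast marker level with r = 0.84, Mmp2 with 0.70, Adamts2 with 0.68 and Timp1 with 0.56, while Timp1 followed the macrophage markers with 0.72. The activated fibroblast markers were followed by Adamts2 with 0.64 and by Timp1 with 0.61. Timp1 also followed the endothelial markers with 0.56 and ran against the cardiomyocyte markers with -0.63, and Timp2 and Adamts2 followed the macrophage markers with 0.66 and 0.58. These are correlations across libraries that share a tissue and a processing, given as a description. HFpEF+SGLT2i V2571 had the highest Timp1 (7.83 TPM), the highest endothelial sum (1542 CPM) and the lowest cardiomyocyte sum (14607 CPM) of the 38 libraries. The r values without V2571 were not computed. Among the 45 pairs of the 10 genes the highest were Timp1 with Adamts2 (0.77) and Timp3 with Timp4 (0.76). The lowest were Mmp15 with Timp3 (-0.70) and Mmp15 with Timp4 (-0.69). The 4 non_failing libraries with Mmp15 above 15 TPM, V2501 to V2504, held 38.8 to 53.5 TPM of Timp3, and V2507 to V2510 held 76.4 to 124 TPM. In HFpEF+Veh hearts V2521, V2523 and V2526 held 42.8 to 54.6 TPM of Timp3, and V2527 to V2532 held 70.3 to 104 TPM. Mmp15 stood at 11.1 to 16.2 TPM in the former and at 8.74 to 11.4 TPM in the latter. HFpEF+TYA-018 libraries stayed between 48.7 and 70.4 TPM of Timp3. The origin of these splits was not tested.

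**Figure D4:**
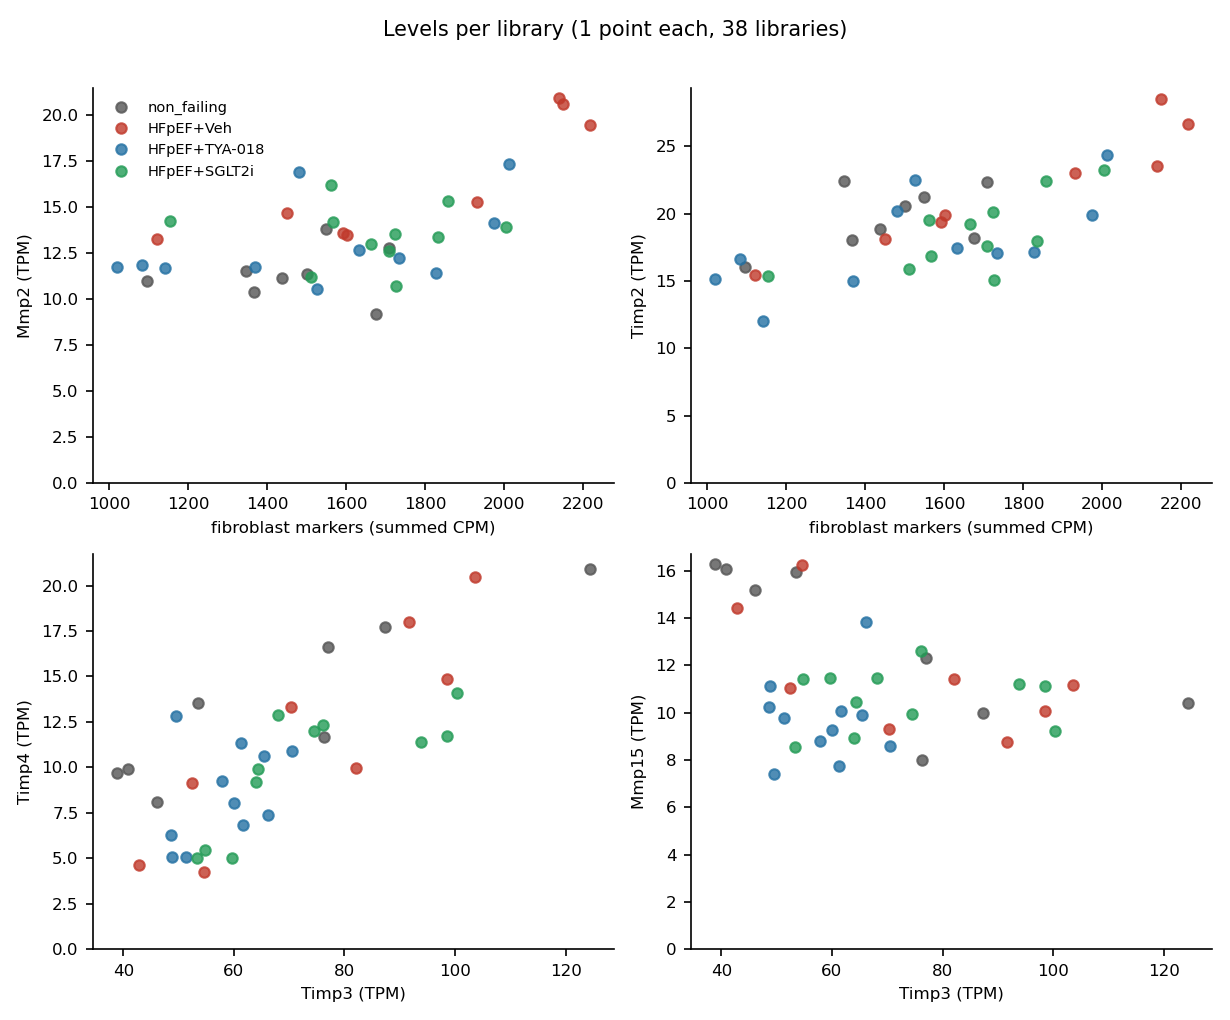
Levels per library, 1 point each, coloured by group: Mmp2 and Timp2 in TPM against the summed CPM of 8 fibroblast markers (upper panels), and Timp4 and Mmp15 against Timp3 in TPM (lower panels). The 3 HFpEF+Veh hearts above 19 TPM of Mmp2 lie at the right end of the fibroblast axis, and Timp4 goes up with Timp3 while Mmp15 goes down.

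For each gene the 3 genes with the most similar pattern over the 38 libraries were listed by Pearson r of log2 CPM. Mmp2 went with Serpinf1 (0.82), Lrp1 (0.81) and Frzb (0.77), Mmp14 with Clmp (0.83), Col3a1 (0.80) and Loxl1 (0.80), and Adamts2 with Loxl1 (0.80), Col1a2 (0.78) and Fstl1 (0.77). Mmp15 went with Lingo3 (0.82), Thra (0.78) and Gja1 (0.76). Timp1 went with Capg (0.85), A4galt (0.84) and Gpx3 (0.82), Timp2 with Lhfp (0.83), Serping1 (0.79) and Gas1 (0.76), Timp3 with Hipk1 (0.85), Sptan1 (0.83) and Gpr116 (0.82), and Timp4 with Map3k6 (0.79), Sult1a1 (0.75) and Rgcc (0.74). Adamts1 went with Apold1 (0.82), Ppp1r15a (0.76) and Nr4a1 (0.76) and Adamts5 less closely with Phf11d (0.69), Pydc4 (0.66) and Oas1b (0.65). After group means were subtracted these r values ran from 0.65 to 0.88.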

How the data were processed

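RNA-seq of the left ventricle was available for 38 mice in 4 groups, 1 library per mouse. Per the labels and the study's methods, the authors trimmed reads, quantified them with Salmon 1.6.0 and summed transcripts to genes. The deposited tables hold estimated counts, TPM and effective lengths (the length from which fragments could arise) per gene. The labels name a human build for these mouse samples, whereas the methods name a mouse one, and gene positions here come from GRCm38 annotation. Estimated counts were rounded, genes with low counts removed by filterByExpr (13765 of 29564 kept), scaled by TMM and fitted in 1 model of 4 groups in edgeR 4.0.16 (R 4.3.3), whose quasi-likelihood test was used. P-values were two-sided and Benjamini-Hochberg adjusted over every tested gene, with 0.05 as the threshold for a call. Alternatives used DESeq2 1.42.0, limma 3.58.1 on log2(TPM + 1) or log2(TPM + 0.1), other scaling and filters, and libraries left out. Libraries of a group come from separate mice, so errors are between mice. Levels per gene are TPM, and libraries above or below another group were counted in TPM unless CPM is named. Fold changes are on the scaled count scale, so levels and fold changes can differ.

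All 10 genes were tested in each of the 6 comparisons. From the wider lists up to 3 called genes were named by smallest p for the disease comparison and up to 2 for each drug, Mmp17 was named because the study names it, and the 3 genes most alike in pattern were taken from genes with an average log2 CPM of at least 1, passing over predicted genes. The genes and lists were chosen with earlier results of these data known. Of the remaining marker lists in HFpEF+Veh against non_failing, 1 of 6 cardiomyocyte markers and 2 of 6 pericyte and smooth muscle markers were called lower, 1 of 4 atrial markers was called higher, and no endothelial, neutrophil, epicardial and mesothelial, hepatocyte or erythrocyte marker was called by edgeR, with 0 of 6, 0 of 4, 3 of 4, 1 of 12 and 4 of 4 at an unadjusted p under 0.05 (15.9% of all genes). No adipocyte marker passed the filter.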

Additional observations from a re-analysis of the deposited data

How the results depend on the processing

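No paired analysis was possible because the groups share no mouse numbers. Over 9 other settings, 478 of 510 fold changes of the 10 genes kept their direction and side of the threshold, 13 gained a call, 2 lost one and 17 changed sign; with 1 library left out these were 1090, 11, 3 and 36 of 1140. In HFpEF+Veh against non_failing 2 genes (Mmp2 and Timp1) in place of 1 were called with library size alone, DESeq2, limma with either pseudocount, an effective length offset and only the 2 groups fitted, which called 344 to 599 genes of all against 433, and 1 to 2 with 1 library left out (2 without V2507, V2523, V2526 or V2532). The fits without these libraries called 390, 620, 405 and 605 genes of all. For TYA-018 against HFpEF+Veh 2 (Mmp2 and Adamts1) were called with library size alone and 1 (Adamts1) with DESeq2 or no filter, settings that called 1096, 402 and 618 genes of all against 266 in the reported fit, and 0 to 1 with 1 library left out (1 without V2521, V2529, V2543 or V2548). Of all genes 368, 209, 231 and 219 were called without these libraries. For HFpEF+TYA-018 against non_failing limma on log2(TPM + 1) called 0 (597 genes of all against 1017), and 1 to 2 were called with 1 library left out (Timp1 alone without V2501, V2503 or V2504, with 1101, 736 and 888 genes of all). For HFpEF+SGLT2i against non_failing DESeq2 called 2 (1129 genes of all against 888) and the fit of only the 2 groups 1 (Mmp2, 809 of all), and 0 to 1 were called with 1 library left out (Mmp15 without V2507, V2509 or V2510, with 701, 730 and 826 genes of all). The cause of these shifts was not tested.

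The changes of sign were in differences that were not called. With library size alone the log2 difference of TYA-018 against HFpEF+Veh was -0.10 for Timp1 and -0.072 for Adamts5, that of empagliflozin against HFpEF+Veh -0.021 for Timp3, -0.052 for Adamts2 and -0.034 for Adamts5, and that between the drugs -0.038 for Adamts5. With limma on log2(TPM + 1) it was -0.16 for Timp1 and -0.052 for Adamts5 with TYA-018 against HFpEF+Veh and -0.081 for Adamts5 between the drugs, and with log2(TPM + 0.1) -0.19, -0.060 and -0.092. With the length offset it was -0.054 for Timp1 with TYA-018 against HFpEF+Veh, and 0.0029 for Timp2 and -0.037 for Adamts5 between the drugs. Without V2523 and V2530 it was -0.0070 for Timp2 in HFpEF+Veh against non_failing and -0.0017 for Timp3 with empagliflozin. With 1 library left out, ranges that crossed 0 were -0.10 to 0.21 for Timp1, and -0.15 to 0.0074 for Adamts2, with TYA-018 against HFpEF+Veh. With empagliflozin they were -0.028 to 0.11 for Adamts2, -0.0042 to 0.081 for Adamts5, -0.086 to 0.031 for Mmp15 and -0.046 to 0.13 for Timp3. Between the drugs they were -0.020 to 0.052 for Adamts5 and -0.062 to 0.023 for Timp2, and in HFpEF+Veh against non_failing -0.022 to 0.23 for Timp3. Timp1, with 19 to 149 counts per library, had the fewest reads behind it.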
